A study of Mus musculus with 12 samples.

Results

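The miRNAs Mir-219 and Mir-338 were followed across 12 small RNA libraries of mouse hippocampus. Their arms were taken by name from a table of 513 miRNA arms, and 5 rows carried the name of Mir-219 or Mir-338. All 5 rows had a mean of at least 10 normalized counts and entered the test between groups. The libraries came from male wild-type C57BL/6J mice, a standard inbred strain, of the second filial generation (F2). The grandfather (F0, traced through the male line) had exercised for 6 of the mice, called the exercised lineage, and was sedentary for the other 6, called the sedentary lineage. Neither the mode and length of the exercise nor the age of the mice is given in the labels used here, and the labels name exercise for the grandfathers only. The design asks how hippocampal miRNAs of grandsons compare between the lineages, and here also whether both miRNAs vary together from animal to animal.

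Mir-219 and Mir-338 are known as the characteristic miRNAs of the oligodendrocyte, the cell that wraps axons of the central nervous system in myelin. Both rise when oligodendrocyte precursors leave the cell cycle and mature, and both are known to hold back transcripts that keep the precursor state, such as those of Sox6 and Hes5, and for Mir-219 also Pdgfra, the receptor for platelet-derived growth factor. A miRNA gene gives a hairpin, from which a 5p and a 3p arm can be cut. Usually 1 arm is retained as the guide strand and recognises its targets through its seed, and the other, the passenger strand, is mostly degraded. The table follows the naming of MirGeneDB, a curated miRNA database, in which P marks a paralogous gene and an asterisk marks the arm annotated as passenger.

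Mature sequences are shown for 4 of the 5 rows, all but Mir-219-P2_3p*, because the naming of the rows follows from them. In MirGeneDB, Mir-219-P1 and Mir-219-P2 stand for the genes called Mir219a-1 and Mir219a-2 in the mouse annotation. The table itself gives only the MirGeneDB names. Sequences are from RefSeq (GRCm38.p6), written 5′ to 3′, with the seed (bases 2 to 8) in capitals:
miR-219a-5p: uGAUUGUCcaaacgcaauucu
miR-219a-1-3p: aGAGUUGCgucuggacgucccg
miR-338-3p: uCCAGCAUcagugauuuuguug
miR-338-5p: aACAAUAUccuggugcugagug
These 4 sequences have 4 different seeds, and none shares its seed with another mature mouse miRNA of the RefSeq table. Mir219a-1 and Mir219a-2 give the identical 5p arm, so its reads cannot be assigned to either gene and stand in 1 row that names Mir-219-P1_5p together with Mir-219-P2_5p. Their hairpins differ elsewhere, as shown with the shared 5p arm in capitals:
Mir219a-1: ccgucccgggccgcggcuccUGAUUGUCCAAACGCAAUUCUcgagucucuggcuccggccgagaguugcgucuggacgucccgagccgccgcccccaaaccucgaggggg
Mir219a-2: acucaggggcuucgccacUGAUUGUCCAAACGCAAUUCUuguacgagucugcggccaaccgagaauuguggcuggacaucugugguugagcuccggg
The 3p arms, Mir-219-P1_3p* and Mir-219-P2_3p*, therefore report on 1 gene each.

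The genes lie on 3 chromosomes of GRCm38 (the assembly also called mm10), all on the minus strand. Mir219a-1 occupies chr17:34024983-34025092, overlaps the exon of the long noncoding RNA gene Gm26940 and lies 303 bases from Ring1. Mir219a-2 occupies chr2:29845631-29845727, overlaps no protein-coding gene, and lies 629 bases from Urm1. Mir338 occupies chr11:120014765-120014862, within introns of Aatk, a gene for a kinase expressed in the nervous system. All 6 annotated Aatk transcripts that span it have it in an intron. The opposite strand carries annotated miRNA genes at each locus, Mir219c, Mir219b and Mir3065, and none of these had a row in the table. Whether the counting used strand is not given in the sources used here. It is therefore not known whether reads of these antisense genes were told apart from those of the members.

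Depth, estimated from the step between values of a library taken as 1 read, was 6862623 to 10219856 reads per library on the 513 arms. Read numbers and counting errors below rest on that estimate. A normalized count is the read number of an arm after division by the size factor of its library. The least abundant of the 5 arms rested on 55 to 119 reads per library and the other 4 on at least 431. Of all 474 tested arms, 53 (11.2%) had their lowest value in F2_sedentary replicate 1, against 4 of the 5 arms of Mir-219 and Mir-338. F2_exercised replicate 1 was lowest for 119 arms (25.1%), and for 0 of the 5. F2_sedentary replicate 1 was singled out after its low values in these arms were seen, so these counts are no test. The 5 arms come from 3 genes and are not independent of each other. F2_sedentary replicate 1 held 7313305 reads. The median arm there stood 0.01 above the mean of the other 11 libraries on the log2 scale, and 9 tested arms were listed at 0 in it, against 3 to 9 in the other libraries. The main results that rest on this library are given with and without it.

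The most abundant of the 5 arms was Mir-219-P2_3p*, although it is annotated as a passenger. It stood at 9033, 11848 and 13551 normalized counts (lowest, median and highest) in the exercised lineage, against 7092, 12454 and 15625 in the sedentary lineage. It ranked number 64 of the 513 arms and took 0.144% of a library on average. The values of the lineages overlapped. The lowest value, 7092, belonged to F2_sedentary replicate 1 and was 57.0% of the mean of the other 11 libraries. In whole tissue, fewer cells of a type and less RNA per cell cannot be told apart. The highest value belonged to F2_sedentary replicate 3 and the next lowest to F2_exercised replicate 1.

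The 5p arm shared by both Mir-219 genes, the guide strand and the form usually meant by miR-219, had 1203, 1419 and 1718 normalized counts in the exercised lineage, against 525, 1254 and 1978 in the sedentary lineage. F2_sedentary replicate 1 was again lowest among overlapping lineages, at 35.5% of the mean of the others, and the next lowest library, F2_sedentary replicate 6, held 1177. Over the 12 libraries the row spanned 3.77-fold, and 1.68-fold without F2_sedentary replicate 1. Its coefficient of variation was 13.2% within the exercised lineage and 39.1% within the sedentary lineage (25.2% without F2_sedentary replicate 1), where counting error alone would give about 2.63%.

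Mir-219-P1_3p*, the other strand of the chromosome 17 gene, was far less abundant. It held 54.9, 82.7 and 99.7 normalized counts in the exercised lineage, against 72.5, 90.4 and 107.9 in the sedentary lineage. Unlike the other arms, it was not low in F2_sedentary replicate 1, which held 82.8, or 96.8% of the mean of the other libraries. Its lowest value belonged to F2_exercised replicate 6, and the lineages overlapped. Counting error would give a coefficient of variation of about 10.8% at its depth, against 18.8% observed over the 12 libraries.

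Both arms of Mir-338 were present at like levels. Mir-338-P1_3p, the guide strand, stood at 1323, 1571 and 2120 normalized counts in the exercised lineage, against 951, 1513 and 2005 in the sedentary lineage. Mir-338-P1_5p*, the annotated passenger, stood at 1841, 1992 and 2286 in the exercised lineage, against 1299, 2119.5 and 2243 in the sedentary lineage. The lineages overlapped for both arms. F2_sedentary replicate 1 was lowest for both, at 57.9% and 62.9% of the mean of the other libraries. Mir-338-P1_5p* varied least of the 5 arms, with coefficients of variation of 8.63% within the exercised lineage and 18.0% within the sedentary lineage. The order of the lineages turned without F2_sedentary replicate 1, when the sedentary value was 6.27% (5 libraries), still the lowest of the 5 arms. Over the other 11 libraries it spanned 1.24-fold. Ligation of adapters can favour some sequences, so the order of levels between arms need not be the order of molecules.

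**Figure D1:**
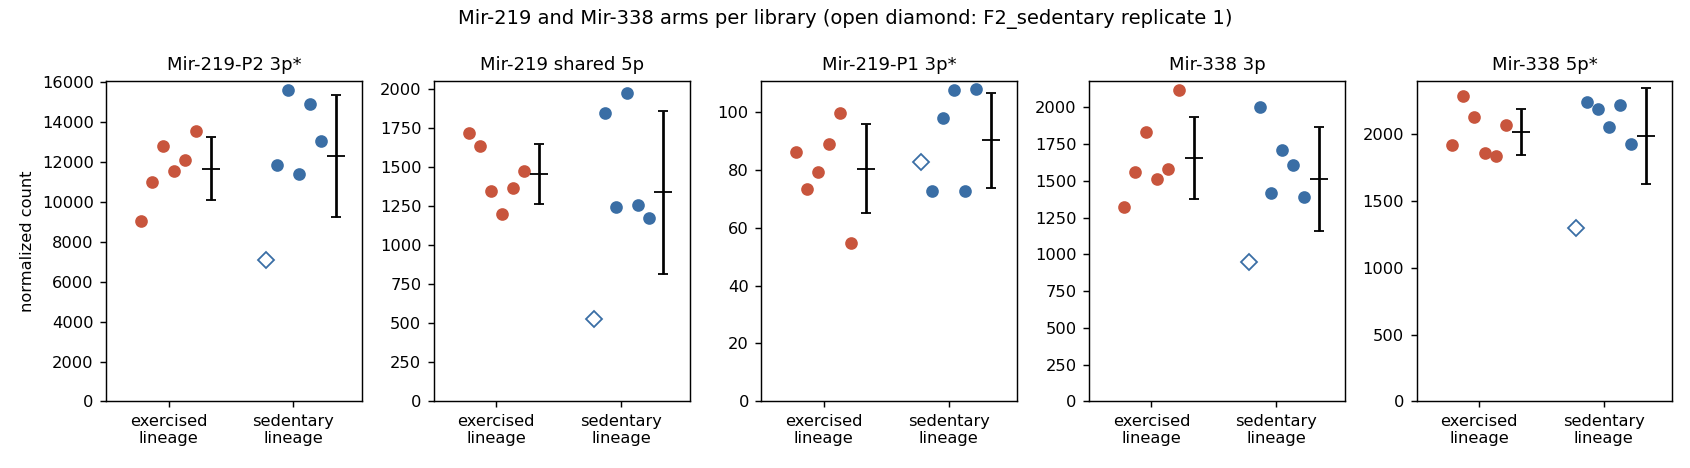
Normalized counts (y axis, from 0) of the 5 arms in each library, exercised lineage left and sedentary lineage right in each panel. Points are libraries and the bar beside them is the mean ± SD (n = 6). F2_sedentary replicate 1, the open diamond, is lowest in the panels of Mir-219-P2_3p*, the shared 5p row and both Mir-338 arms, at 7092, 525, 951 and 1299, and not in that of Mir-219-P1_3p*, at 82.8.

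No arm of Mir-219 or Mir-338 differed between the lineages at the adjusted threshold. With limma on log2(normalized count + 1), 0 of the 5 arms were called at an adjusted p below 0.05, against 0% of all 474 arms. An unadjusted p below 0.05 was reached by 0 of the 5 and by 34 of the 474 (7.17%). The values of the lineages overlapped for each of the 5, and no arm among the 474 had values that did not overlap (0%). Folds lay above 0 for 3 of the 5 and below 0 for 2, median 0.04, beside 236 above and 238 below with a median of -0.00 over all arms. Folds are the exercised minus the sedentary lineage on the log2(normalized count + 1) scale.

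The largest fold was that of the shared Mir-219 5p row, which averaged 1457 ± 192 normalized counts in mice of the exercised lineage and 1339 ± 523 in those of the sedentary lineage (SD, n = 6 each). Its fold was 0.23 (SE 0.26, 95% confidence interval -0.33 to 0.79, limma adjusted p = 0.741), with 5 of 6 exercised-lineage libraries above the sedentary median. Without F2_sedentary replicate 1 its fold was -0.02. Mir-219-P2_3p* had a fold of -0.04 (-0.42 to 0.33, limma adjusted p = 0.960), which was -0.20 without that library and 0.04 when libraries were scaled to equal totals. The fold of Mir-219-P1_3p* was -0.17 (-0.52 to 0.18, limma adjusted p = 0.675), and -0.07 without F2_exercised replicate 6. It averaged 80.3 ± 15.4 in mice of the exercised lineage and 90.2 ± 16.4 in those of the sedentary lineage. Of its exercised-lineage libraries, 5 of 6 lay below the sedentary median, and for Mir-219-P2_3p* 4 of 6 did.

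For Mir-338, the 3p guide averaged 1655 ± 280 normalized counts in mice of the exercised lineage and 1514 ± 355 in those of the sedentary lineage (SD, n = 6 each). Its fold was 0.15 (95% confidence interval -0.21 to 0.51, limma adjusted p = 0.738), and 0.02 without F2_sedentary replicate 1. The 5p arm averaged 2017 ± 174 in mice of the exercised lineage and 1987 ± 357 in those of the sedentary lineage, a fold of 0.04 (-0.24 to 0.32, limma adjusted p = 0.955), and -0.08 without that library. The intervals are wide enough to hold a difference of up to 1.72-fold for the shared Mir-219 5p row. Labels do not say whether the mice of a lineage are litter mates, and submitter codes group them in 4 sets of 3, so the p-values treat as independent mice that may be related.

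Across all 12 libraries, levels of Mir-219 and Mir-338 were correlated, and the correlation was carried by the low values of F2_sedentary replicate 1. The lead arms, Mir-219-P2_3p* and Mir-338-P1_5p*, the most abundant row of each, had a Pearson r of 0.76 on log2(normalized count + 1) (permutation p = 0.0121 over 100000 resamples, two-sided, 0.0436 adjusted over the 10 pairs of arms). The shared Mir-219 5p row had r = 0.75 with Mir-338-P1_3p (permutation p = 0.0131, adjusted 0.0436) and r = 0.82 with Mir-338-P1_5p* (permutation p = 0.0176, adjusted 0.0440). Both arms of Mir-338 had r = 0.77 with each other (permutation p = 0.00943, adjusted 0.0436). These were the 4 of 10 pairs with an adjusted p below 0.05. Mir-219-P2_3p* with Mir-338-P1_3p had r = 0.64 and missed it (permutation p = 0.0315, adjusted 0.0630). The permutations treat the 12 libraries as exchangeable, although mice of a lineage or of a submitter code set may be related.

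Pairs of any 2 arms in these libraries rarely reached such values. The median r was 0.54 over the 10 pairs and -0.00 over all 112101 pairs of tested arms, of which 1.67% had an r as high as that of the lead arms and 0.897% one as high as 0.82. Pairs of arms share the same libraries and scaling, and are not independent. Mir-219-P1_3p* stood apart from the others, with r of -0.05 with each of the other Mir-219 rows, -0.44 with Mir-338-P1_3p and -0.21 with Mir-338-P1_5p* (permutation p from 0.157 to 0.880).

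The common movement rested on 1 library. Without F2_sedentary replicate 1, the r of the lead arms was 0.35 (permutation p = 0.291 over 11 libraries), a value that 20.5% of all pairs of arms reached there, the median r over the 10 pairs was 0.05, and 0 of 10 pairs had an adjusted p below 0.05. Only 1 had an unadjusted p below 0.05, Mir-219-P1_3p* with Mir-338-P1_3p, at r = -0.66 (permutation p = 0.0258, adjusted 0.255). Between the families, the pairs of the 4 more abundant arms had r from 0.21 to 0.35 in those 11 libraries. Without the 2 libraries farthest from the median of Mir-219-P2_3p*, F2_sedentary replicate 1 and F2_exercised replicate 1, the r of the lead arms was 0.21 (permutation p = 0.561). Spearman's rho of the lead arms, which weighs a far point less, was 0.38 over all 12 libraries (permutation p = 0.227). For the other 3 pairs rho was 0.55, 0.41 and 0.51 (permutation p = 0.0665, 0.193 and 0.0927, in the order given above), and by rho 0 of 10 pairs had a p below 0.05, adjusted or not.

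**Figure D2:**
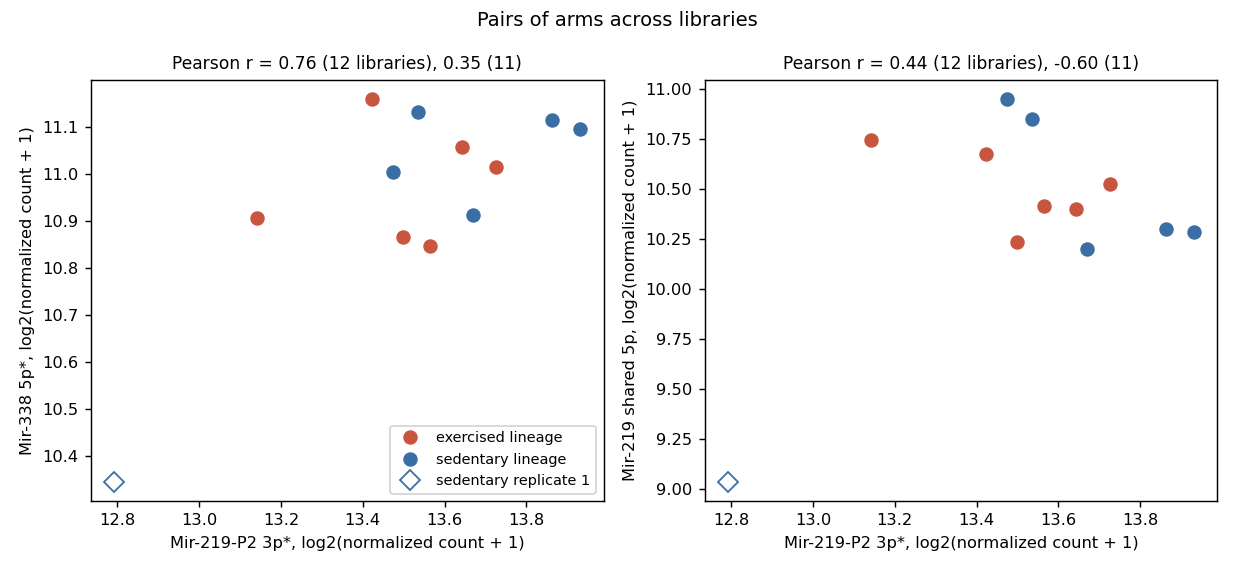
Each point is a library, with log2(normalized count + 1) on both axes, Mir-219-P2_3p* against Mir-338-P1_5p* at left and against the shared Mir-219 5p row at right. F2_sedentary replicate 1 lies alone at the lower left of both panels, and without it r is 0.35 at left and -0.60 at right.

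Within lineages, with 6 libraries each, r of the lead arms was 0.18 in the exercised lineage (exact permutation p = 0.739, n = 6) and 0.90 in the sedentary lineage (exact permutation p = 0.0528, n = 6), where F2_sedentary replicate 1 is included. In the exercised lineage the highest r was that of Mir-219-P2_3p* with Mir-338-P1_3p, 0.91 (exact permutation p = 0.0153, adjusted 0.153, n = 6). In the sedentary lineage it was that of the shared 5p row with Mir-338-P1_3p, 0.95 (exact permutation p = 0.00972, adjusted 0.0972, n = 6), also with F2_sedentary replicate 1 included. The difference between the lineages was not tested. Sets of 3 libraries with a common submitter code are too small for an r of their own, and the r of the lead arms after centring on the mean of each set was 0.86. That value still includes F2_sedentary replicate 1, and without the 3 libraries of its set (code S11) the uncentred r was 0.31.

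For arms that can come from 1 hairpin, r also depended on that library. The shared 5p row and Mir-219-P2_3p* had r = 0.44 in 12 libraries (permutation p = 0.155, adjusted 0.224) and r = -0.60 in the other 11 (permutation p = 0.0509, adjusted 0.255), and rho was -0.22 over all 12 (permutation p = 0.482). None of these passed the threshold. The arms of Mir-338, which come from 1 hairpin, had r = 0.77 in 12 and 0.39 in 11 libraries (permutation p = 0.240, adjusted 0.509).

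**Figure D3:**
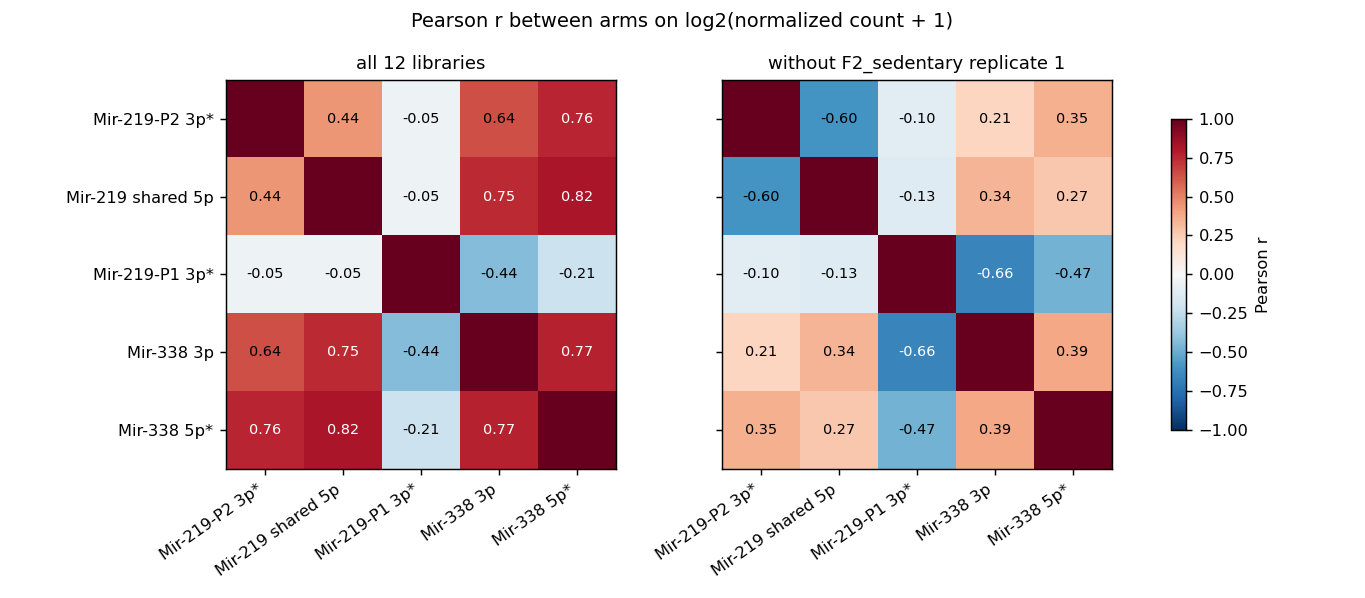
Pearson r for the 10 pairs of arms, with all 12 libraries at left and without F2_sedentary replicate 1 at right (red above 0, blue below). At left the 6 pairs that leave out Mir-219-P1_3p* run from 0.44 to 0.82, and at right the highest value is 0.39.

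**Figure D4:**
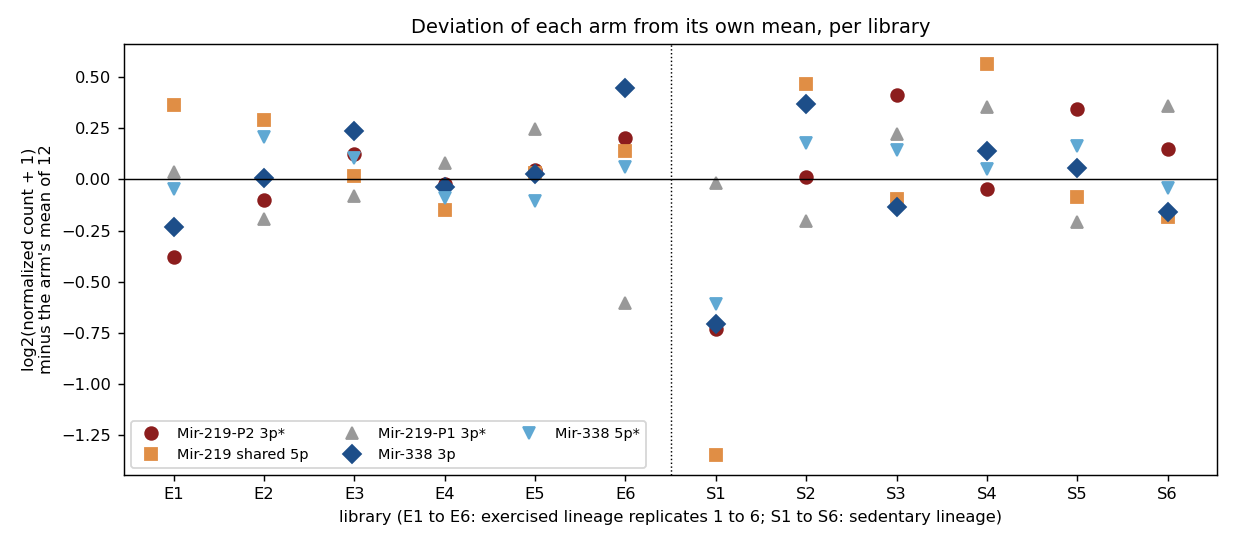
Deviation of each arm from its own mean over 12 libraries (y axis, log2) per library (x axis, exercised lineage left of the dotted line, sedentary lineage right of it). In the first sedentary library, 4 arms lie well below 0 together, while Mir-219-P1_3p* lies close to 0.

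Ratios of arms within a library do not depend on the library scaling, and for none of the 3 examined did the difference between the lineages pass the test. The ratios printed are of normalized counts. The log2 ratios tested add 1 to each count, which leaves a slight dependence on scaling. The ratio of Mir-219-P2_3p* to Mir-338-P1_5p* was 4.71, 6.11 and 6.59 (lowest, median and highest) in the exercised lineage, against 5.29, 6.14 and 7.14 in the sedentary lineage. The difference of log2 ratios was -0.09 (exact permutation p = 0.468, two-sided, n = 6 each). In F2_sedentary replicate 1 this ratio was 5.46, within the range of both lineages. The Mir-338 3p arm stood at 0.683, 0.835 and 1.03 times the 5p arm in the exercised lineage, against 0.647, 0.730 and 0.894 in the sedentary lineage (difference of log2 ratios 0.11, exact permutation p = 0.359, n = 6 each). The 3p arm exceeded the 5p arm in F2_exercised replicate 6 alone.

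The ratio of the shared Mir-219 5p row to Mir-219-P2_3p* varied most, 2.57-fold over the 12 libraries. It was 0.104, 0.111 and 0.190 in the exercised lineage, against 0.0740, 0.0874 and 0.174 in the sedentary lineage (difference of log2 ratios 0.27, exact permutation p = 0.316, n = 6 each). Without F2_sedentary replicate 1, the lowest library, the difference was 0.18 (exact permutation p = 0.515, n = 6 and 5). Over the 3 ratios the adjusted p was 0.468 for each. The widest gap in this ratio lay between 0.113 and 0.149, with 8 libraries below it and 4 above. The 4 were F2_exercised replicates 1 and 2 and F2_sedentary replicates 2 and 4, so both lineages lay on both sides.

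**Figure D5:**
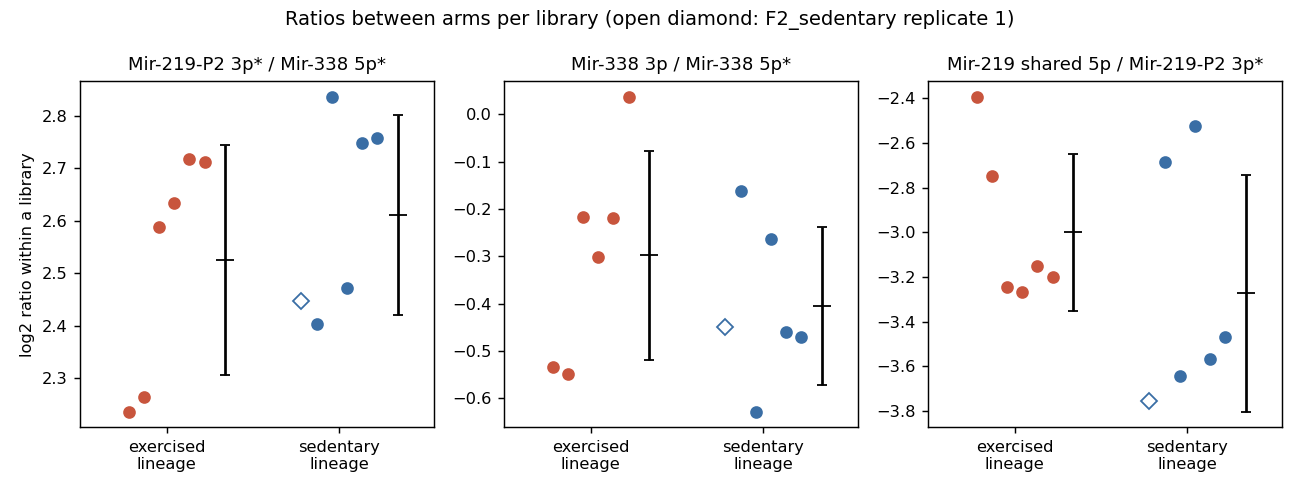
Log2 ratio of arms within each library (y axis), exercised lineage left and sedentary lineage right, with the mean ± SD (n = 6) beside the points. F2_sedentary replicate 1, the open diamond, lies inside the range of its lineage in the first 2 panels and is the lowest point of the third, at a ratio of 0.0740.

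Over all 12 libraries, few arms outside the families followed the lead arms as closely as these followed each other. Of 469 other tested arms, 1 had a higher r with Mir-219-P2_3p* than Mir-338-P1_5p* had, and 5 had a higher r with Mir-338-P1_5p* than Mir-219-P2_3p* had. This closeness was not kept without F2_sedentary replicate 1, when the r of the lead arms was 0.354. The arm at place 78 of the 469 by its r with Mir-219-P2_3p* then had 0.566. That at place 46 by its r with Mir-338-P1_5p* had 0.350. The arms most like Mir-219-P2_3p* over the 12 libraries were Mir-325_3p* with r = 0.88, Mir-192-P1_5p with 0.76, Mir-3095_3p with 0.75, Mir-30-P1a_3p* with 0.74 and Mir-21_5p with 0.73. For Mir-338-P1_5p* they were Mir-3095_3p with 0.82, Mir-670_3p with 0.80, the joint 5p row of Mir-154-P29-v1 and Mir-154-P29-v2 and Mir-15-P2a_3p* with 0.78 each, and Mir-325_3p* with 0.76.

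Many of these arms were also lowest in F2_sedentary replicate 1. That held for all 5 arms most like Mir-338-P1_5p*, of which Mir-3095_3p, Mir-670_3p and the Mir-154-P29 row were listed at 0 there. The arms were picked by an r that includes that library, so low values there are in part a product of the choice. Without that library, the r of these 5 with Mir-338-P1_5p* lay between -0.08 and 0.35. Mir-325_3p* had 77.9 normalized counts in F2_sedentary replicate 1 and at least 96.2 in the others, and kept r = 0.72 with Mir-219-P2_3p* in the 11. Mir-192-P1_5p and Mir-3095_3p were also lowest there, and their r with Mir-219-P2_3p* was 0.57 and 0.19 without it. Mir-30-P1a_3p* and Mir-21_5p were not lowest in that library, and their r with Mir-219-P2_3p* was 0.83 and 0.78 without it.

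Other miRNAs with a known role in the oligodendrocyte lineage did not differ at the adjusted threshold either. This list held 31 tested arms of 9 families. With limma 0 were called. Folds of 17 lay above 0 and of 14 below, median 0.04, beside -0.00 over all arms. An unadjusted p below 0.05 was reached by 2 of the 31 (6.45%), a share near the 7.17% of all arms. They were Mir-17-P1a_3p*, with 41.2 ± 15.0 against 27.3 ± 4.46 normalized counts in the exercised and sedentary lineages, and Mir-17-P4_5p, with 349 ± 60.4 against 270 ± 49.5 (SD, n = 6 each, limma adjusted p = 0.532 for both). Both were chosen after their values were seen.

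The most abundant rows of the 9 families had folds on both sides of 0. The joint 5p row of Mir-138-P1 and Mir-138-P2, a miRNA which is known to act early in differentiation, averaged 9165 ± 1633 in mice of the exercised lineage and 7819 ± 1322 in those of the sedentary lineage (SD, n = 6 each). Its fold was 0.23 (limma adjusted p = 0.532). Mir-23-P2_3p, of the family known to lower lamin B1 in myelinating cells, had a fold of -0.02, and Mir-32_5p one of 0.24. The joint 5p row of Mir-7-P1 and Mir-7-P2, linked to the choice of the oligodendrocyte fate, averaged 70012 ± 29277 in the exercised lineage against 97029 ± 29453 in the sedentary lineage, a fold of -0.56 (SE 0.33, limma adjusted p = 0.532). Folds of the leading rows of Mir-9, Mir-17, Mir-27, Mir-145 and Mir-212 (Mir-132-P2) were -0.08, 0.06, 0.04, -0.19 and -0.30.

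Of the 31 arms of this list, 7 (22.6%) were lowest in F2_sedentary replicate 1, beside 53 of all 474 (11.2%). That library was singled out after low values of Mir-219 and Mir-338 were seen, and the list was chosen with earlier results known. These counts are therefore no test. In F2_sedentary replicate 1, Mir-32_5p stood at 287, the lowest of the 12 libraries. The joint 3p row of Mir-27-P1 and Mir-27-P2 was also lowest there, while the joint 5p row of Mir-7 was highest, at 135263. The 31 arms summed to 2589190 normalized counts in that library, rank 11 of 12 from the lowest. Most of that sum was the leading row of Mir-9, at 2280910 (rank 10).

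Markers of other cell types were present in every library. The 10 rows of choroid plexus markers, of which 1 was listed at 0 in some library, summed to 47628 to 203016 normalized counts in the exercised lineage, against 45985 to 199458 in the sedentary lineage. F2_sedentary replicate 1 held 197123 of them, rank 10 of 12 from the lowest. The 9 rows of neuronal markers summed to 886479 to 1116320 in the exercised lineage, against 887969 to 1286990 in the sedentary lineage, and to 1188270 in F2_sedentary replicate 1, rank 11. Most of that neuronal sum was the leading row of Mir-128, at 690989 (rank 11). The leading rows of the other neuronal families stood lower there, at rank 3 for Mir-124, rank 4 for Mir-129 and rank 6 for Mir-218.

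Sums of the other lists placed F2_sedentary replicate 1 in the lower part of the range of the 12 libraries without being the lowest of them. The 5 rows of erythroid markers, of which 1 was listed at 0 in some library, summed to 631 to 838 in the exercised lineage, against 733 to 1219 in the sedentary lineage, with 733 in that library, the lowest of its lineage (rank 5 of 12). The 8 rows of microglia and leukocyte markers summed to 1702 to 2259 in the exercised lineage, against 1787 to 2221 in the sedentary lineage, with 1806 there (rank 3). The 6 rows of endothelial and mural markers, which include the Mir-145 rows named above, summed to 312588 to 693033 in the exercised lineage, against 339905 to 724817 in the sedentary lineage, with 388673 there (rank 5). Most of each of these sums in F2_sedentary replicate 1 was the leading row of 1 family. It was Mir-486_5p for the erythroid list, at 520 (rank 7). For microglia and leukocytes it was Mir-150_5p, at 1315 (rank 5), and for the endothelial and mural list Mir-143_3p, at 287670 (rank 5). Of the 38 marker rows of these 5 cell types, 0 were lowest in F2_sedentary replicate 1, beside 53 of all 474 tested arms (11.2%). For Mir-219 and Mir-338 it was 4 of the 5 rows, but that library was singled out after their low values were seen. The lists were also chosen with earlier results known, so these counts are no test of a difference between cell types. The part of these cell types in the values of that library was not tested.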

How the data were processed

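Small RNA libraries were made from hippocampal RNA with a ligation kit for Illumina sequencing, per the labels' protocols. Bowtie 1.3.0, the build mm10 and DESeq2 are named in the submitters' processing notes. The deposited signal is the authors' reads per arm divided by a size factor for each library: 100% of values were whole multiples of a step, taken as 1 read, within 0.01, and the smallest positive value stood for 2 to 6 such reads, so read numbers are estimates. How reads were assigned to arms that share a sequence is not given in the sources used here.

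Arms with a mean of at least 10 were tested on log2(value + 1) with limma 3.58.1 (R 4.3.3, trended variance, Benjamini-Hochberg over 474 arms, threshold 0.05), all 12 libraries and no covariate. The fit was tested on simulated data. Correlations used permutation tests with 100000 resamples (scipy 1.17.1), or all 720 orders within a lineage, and ratios used all 924 assignments of 6 of 12 libraries. Named arms were all members, the 5 arms most correlated with each lead arm, and the most abundant row of each family of the oligodendrocyte-lineage list. The members and all lists, cell type markers included, were chosen with earlier results of these data known. Loci are from GENCODE M21. The precision of low arms is limited by counting error, and PCR reads without molecular identifiers are not independent molecules. Alternatives were other scalings, pseudocounts, filters, left-out libraries and a block on mouse number.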

Additional observations from a re-analysis of the deposited data

Results flagged for a closer look

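Within the 6 sedentary-lineage libraries, Mir-338-P1_5p* in F2_sedentary replicate 1 stood far below the others. On the log2(normalized count + 1) scale, its gap to the nearest library made up 0.721 of the range of the lineage. It had 1299 normalized counts there and at least 1926 in the other 5. Of 16 sets of values examined in this way it was the only one past the limit, and chance marks about 1 in 20 such sets.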

How the results depend on the processing

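No arm was called between the lineages under any of the 23 alternatives, which were other scalings, pseudocounts, filters, left-out libraries or sets of libraries, and a replicate block. The lowest limma adjusted p over all arms was 0.318, without F2_sedentary replicate 2. Mouse numbers gave no pairing: deviations of same-numbered libraries had r between -0.17 and 0.15, and 1 of 6 numbers correlated best with its own. With the replicate block, 16 arms rather than 34 had an unadjusted p below 0.05 and the log2 ratio of the lead arms stayed at -0.09 (exact sign-flip p = 0.188). Scaling to equal totals moved the median of all arms to 0.08. The r of the lead arms, 0.76, was 0.35 to 0.83 when 1 library was left out, lowest without F2_sedentary replicate 1, and 0.31 without the 3 libraries coded S11. It was 0.18 in the exercised lineage, 0.90 in the sedentary lineage, 0.21 without the 2 farthest libraries, and 0.38 as Spearman's rho. The median r over the 10 pairs, 0.54, was 0.054 to 0.63 when 1 library was left out, 0.066 without the S11 libraries and 0.14 with Spearman's rho. The log2 ratio of the lead arms was -0.13 to -0.03 when 1 library was left out, 0.077 without the 3 libraries coded R31 and -0.25 without those coded R41 (exact permutation p = 0.107). Small folds changed sign. That of the shared Mir-219 5p row was -0.018 to 0.36 when 1 library was left out. Mir-219-P2_3p* ranged over -0.20 to 0.033, with values above 0 without F2_exercised replicate 1, F2_sedentary replicate 3 or F2_sedentary replicate 5. It was 0.042 with equal totals, 0.052 without R31 and 0.080 without S41. Mir-338-P1_5p* ranged over -0.077 to 0.080, and was -0.025 without R31 and -0.036 without S11. Causes of these changes were not tested. Mir-219-P1_3p* ranged over -0.24 to -0.066, nearest 0 without F2_exercised replicate 6. Directions of Mir-219-P1_3p* and Mir-338-P1_3p held in all 22 alternatives run for each. An edgeR test on recovered reads was planned and was not run, since the smallest positive values stood for 2 to 6 steps and single reads could not be checked. Depth limits Mir-219-P1_3p* most.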
